A study of Nothobranchius furzeri with 185 samples.

Results

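Livers of old adult killifish, at 39 weeks of age, were compared with livers of young adults at 12 weeks. The turquoise killifish Nothobranchius furzeri is a short-lived fish used to study ageing. The 10 livers were taken by tissue and age from the 185 RNA-seq libraries of a study that also held skin, brain and fin clips. At 12 weeks they came from fish JM104, JM105, JM106, JM107 and JM115, and at 39 weeks from JM1, JM12, JM13, JM15 and JM18. The labels give normal ageing and no drug for these fish, each fish gave 1 liver library, and the labels name neither strain, sex nor hour of sampling. Livers of 20 and 27 weeks (5 fish each) are given as intermediate points. Skins of the same ages (5 fish each) and livers of other fish that had DMSO, the solvent of the rotenone arm, in their tank water at 9 and 27 weeks (5 fish each) are given for comparison. P-values set a difference against the spread between fish of a group. For the comparison of ages that spread was estimated also from livers of 5 weeks (5 fish). For the tissue difference, skins of 5, 20 and 27 weeks (5 fish each) were added to these. For the vehicle comparison, livers of 27 weeks with rotenone (5 fish) were included.

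The liver is made mostly of hepatocytes, which secrete the plasma proteins, build and clear lipoproteins, make bile acids, burn fatty acids in mitochondria and detoxify foreign compounds with cytochrome P450 enzymes. Its blood spaces are lined by scavenging endothelial cells and patrolled by resident macrophages, and stellate cells lay down matrix. In mammals, ageing of the liver is known for inflammation, fat storage and lower drug metabolism.

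Levels are CPM (counts scaled to a common library size) with TMM factors, which correct library size for a few very abundant genes, and fish are always listed in the order given above. Differences are log2 fold changes of 39 against 12 weeks ± standard error, positive when higher at 39 weeks. A locus identifier follows a symbol that several loci share, since their reads may be exchanged. A gene was called at an adjusted p under 0.05.

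Total counts ran from 24.7 to 32.1 M at 12 weeks and from 15.0 M (JM15) to 37.0 M (JM18) at 39 weeks. Mitochondrial rRNA took 0.269% of counts in JM15 and 0.218% in JM1, against 0.0613 to 0.120% in the other livers of both ages. JM15 alone of the 10 carries the mark w0w1 in its library name, which no label explains. The part of these differences in the results was not tested. All 10 libraries carried the hepatocyte genes, none of which was at 0, with fabp10a Nfu_g_1_010874, the liver fatty acid binding protein, between 749 and 14800 CPM. The summed level of the 49 hepatocyte genes was 357100, 277900, 361900, 539100 and 196000 CPM at 12 weeks and 36800, 111300, 209700, 61680 and 296500 CPM at 39 weeks, lowest in JM1 and JM15. Other tissues marked single livers. Pancreas genes summed to 155200 CPM in JM104, against 2704 to 59000 CPM in the other 9 livers. Muscle genes summed to 3037 CPM in JM15, against at most 188 CPM elsewhere, and intestine genes to 5864 CPM in JM1, against at most 1746 CPM. The 10 most abundant genes took 25.1 to 33.8% of counts at 12 weeks and 14.01 to 26.8% at 39 weeks. Scaling therefore matters: over all genes tested, the median log2 fold change was 0.08 with TMM factors and 0.68 with library totals alone, and medians of gene lists are given below relative to that of all genes. The part that hepatocyte content and other tissues have in the results was not tested beyond the values given without named livers.

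**Figure D1:**
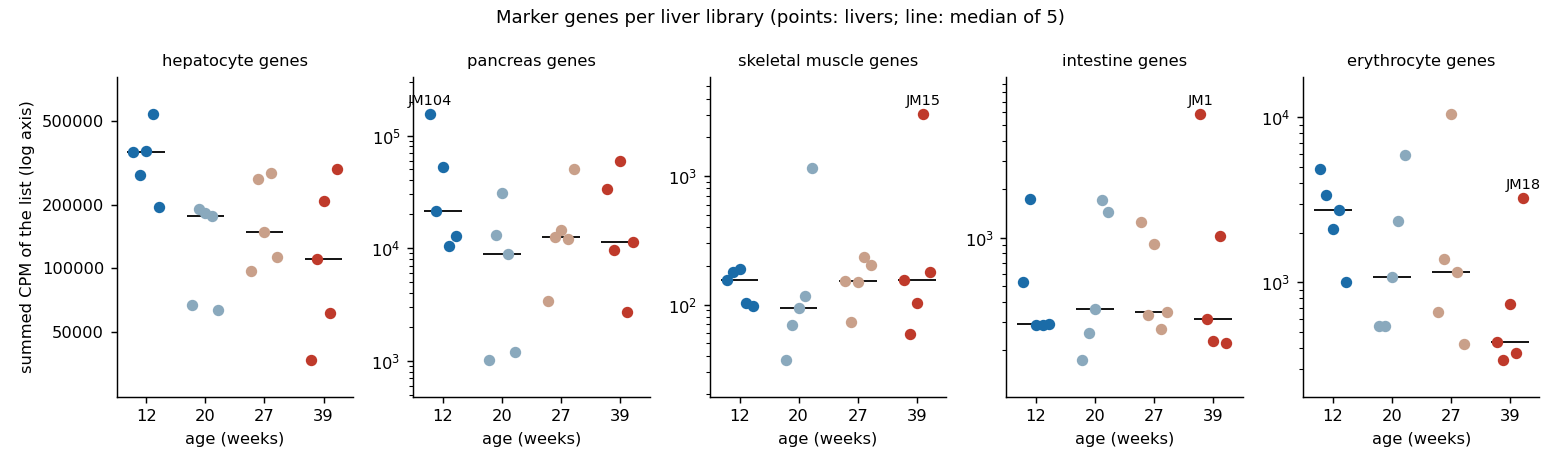
Summed CPM (log axis) of the hepatocyte, pancreas, skeletal muscle, intestine and erythrocyte lists in each liver at 12, 20, 27 and 39 weeks of age. Points are livers and lines the median of 5 fish. Muscle genes reach 3037 CPM in JM15, intestine genes 5864 CPM in JM1 and pancreas genes 155200 CPM in JM104.

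No gene of 17618 tested passed the threshold in edgeR's quasi-likelihood test, where the smallest Benjamini-Hochberg adjusted p was 0.0564. At an unadjusted p under 0.05, 1713 genes (9.72%) were higher and 1313 (7.45%) lower at 39 weeks. DESeq2 called 508 genes at adjusted p under 0.05, of which 238 (1.35%) were higher and 270 (1.53%) lower, and all 508 had an unadjusted p under 0.05 in edgeR. The livers of both ages did not overlap for 294 genes (1.67%) that were higher and 337 (1.91%) that were lower. Single libraries bear on the absence of calls in edgeR. Without JM18 it called 118 genes (71 higher, 47 lower) and without JM115 it called 39, of which 28 were the same genes. Without JM1 or without JM13 it called 1 gene. Without both JM1 and JM15, 759 of 18160 genes were higher and 647 lower at an unadjusted p under 0.05, fewer than with all 10 livers. Counts of list members from that fit are to be read beside these. With library totals alone, 5671 genes were higher and 242 lower at an unadjusted p under 0.05, so the balance of higher and lower members in a list depends on the scaling. It is given under both scalings for many of the lists in which it turns, but not for every list. Counts of list members with library totals are to be read beside the 5671 higher and 242 lower of all 17618 genes.

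Genes with the smallest p on the higher side included a receptor of the sinusoidal endothelium, inhibitors and receptors of growth signalling, and regulators of transcription. stab2 encodes stabilin 2, the receptor by which sinusoidal endothelial cells clear hyaluronan from blood. Its level was 2.47, 1.98, 1.31, 1.85 and 0.931 CPM at 12 weeks and 20.7, 34.3, 21.5, 6.31 and 4.63 CPM at 39 weeks. Every old liver was above every young liver, with JM15 and JM18 the lowest of the old, at a log2 fold change of 3.36 ± 0.65 (adjusted p = 0.0564, edgeR). The phosphoinositide phosphatase gene mtmr7b read 15.4, 24.1, 16.7, 12.8 and 15.2 CPM and then 31.8, 66.3, 25.2, 46.5 and 37.2 CPM, without overlap and highest in JM12 (1.30 ± 0.24, edgeR adjusted p = 0.0564). spry1, an inhibitor of receptor tyrosine kinase signalling, stood at 14.9, 8.6, 14, 9.27 and 14.4 CPM in the young and 35, 39.9, 19.9, 25.7 and 27.8 CPM in the old livers. JM13 was the lowest of the old, still above the highest young liver (1.28 ± 0.28, edgeR adjusted p = 0.0767). The sphingosine-1-phosphate receptor gene s1pr5a Nfu_g_1_019471 read 3.36, 5.91, 3.43, 2.6 and 4.62 CPM against 23.5, 13.5, 7.32, 19.6 and 7.62 CPM, where JM13 and JM18 came closest to the young livers (1.84 ± 0.42).

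The transcription factor gene tcf12 Nfu_g_1_018260 had 5.27, 6.79, 6.51, 4.75 and 7.91 CPM at 12 weeks and 9.75, 11.5, 10.2, 15.4 and 9.9 CPM at 39 weeks. Its groups did not overlap, at a smaller log2 fold change of 0.86 ± 0.17 (edgeR adjusted p = 0.0564). fam208b read 31.6, 26, 29.7, 31.7 and 20.6 CPM in the young and 62, 64.3, 150, 90.1 and 235 CPM in the old livers, where JM18 and JM13 were the highest (2.11 ± 0.43, edgeR adjusted p = 0.0676). The adaptor gene sash1a Nfu_g_1_021905 was at 1.78 to 4.06 CPM and 5.21 to 11.3 CPM (1.45 ± 0.30), and the uncharacterised locus BX005380.1 Nfu_g_1_011920 at 1.29 to 4.15 and 4.49 to 12.3 CPM (1.89 ± 0.35). Neither pair of groups overlapped.

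On the lower side stood genes of fatty acid uptake, nucleoside handling and amino acid exchange. si:dkeyp-72g9.4, which the files name only by this clone identifier, read 111, 13.7, 41.8, 189 and 7.91 CPM at 12 weeks and 0.404, 0.715, 0.15, 0.851 and 0.17 CPM at 39 weeks. The lowest young liver, JM115, was still well above the highest old liver, JM15, and the log2 fold change of -7.31 ± 1.42 shared the smallest adjusted p of the comparison (edgeR, 0.0564). TEX264 (1 of 2), a receptor that hands endoplasmic reticulum to autophagosomes in mammalian cells, stood at 9.75, 9.92, 10.6, 15.1 and 5.05 CPM and then at 2.89, 2.72, 3, 2.91 and 4.59 CPM. JM18 was the highest old liver and JM115 the lowest young liver, with a narrow gap between them (-1.64 ± 0.31, edgeR adjusted p = 0.0564). SLC27A2 (2 of 4), an acyl-CoA synthetase that traps long fatty acids, had 215, 228, 264, 382 and 166 CPM in the young and 28.8, 22.4, 95.4, 36.4 and 102 CPM in the old livers. JM13 and JM18 stood above the other old livers but below all young ones (-2.14 ± 0.47, edgeR adjusted p = 0.0767).

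adka, adenosine kinase, which turns adenosine into AMP, read 99.1, 70.5, 158, 115 and 78.8 CPM against 29.3, 42.7, 32.6, 41.5 and 44.9 CPM, without overlap (-1.45 ± 0.32). cecr1a, of the secreted adenosine deaminases, went from 24.9, 24.2, 27.3, 27.1 and 12.7 CPM to 4.14, 7.26, 10.1, 7.21 and 13.1 CPM, and here JM18 just passed the young liver JM115 (-1.47 ± 0.34). got2a Nfu_g_1_003902, the mitochondrial aspartate aminotransferase, stood at 533, 318, 450, 620 and 227 CPM and 164, 151, 213, 157 and 196 CPM, with JM13 the highest old liver and JM115 the lowest young liver (-1.28 ± 0.30). taf8, a subunit of the general transcription factor TFIID, had 7.81 to 22.6 CPM and 5.37 to 7.51 CPM (-1.40 ± 0.30). RABGAP1 Nfu_g_1_006457, a regulator of Rab GTPases, had 9.33 to 12.1 CPM and 3.13 to 6.27 CPM (-1.26 ± 0.26). The adjusted p of these 5 genes in edgeR lay between 0.0676 and 0.092. All 16 genes described here kept their sign with library totals alone and without JM1 and JM15. A sign that held with each of the 10 livers left out was a condition for naming the leading genes, so it lends them no weight.

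**Figure D2:**
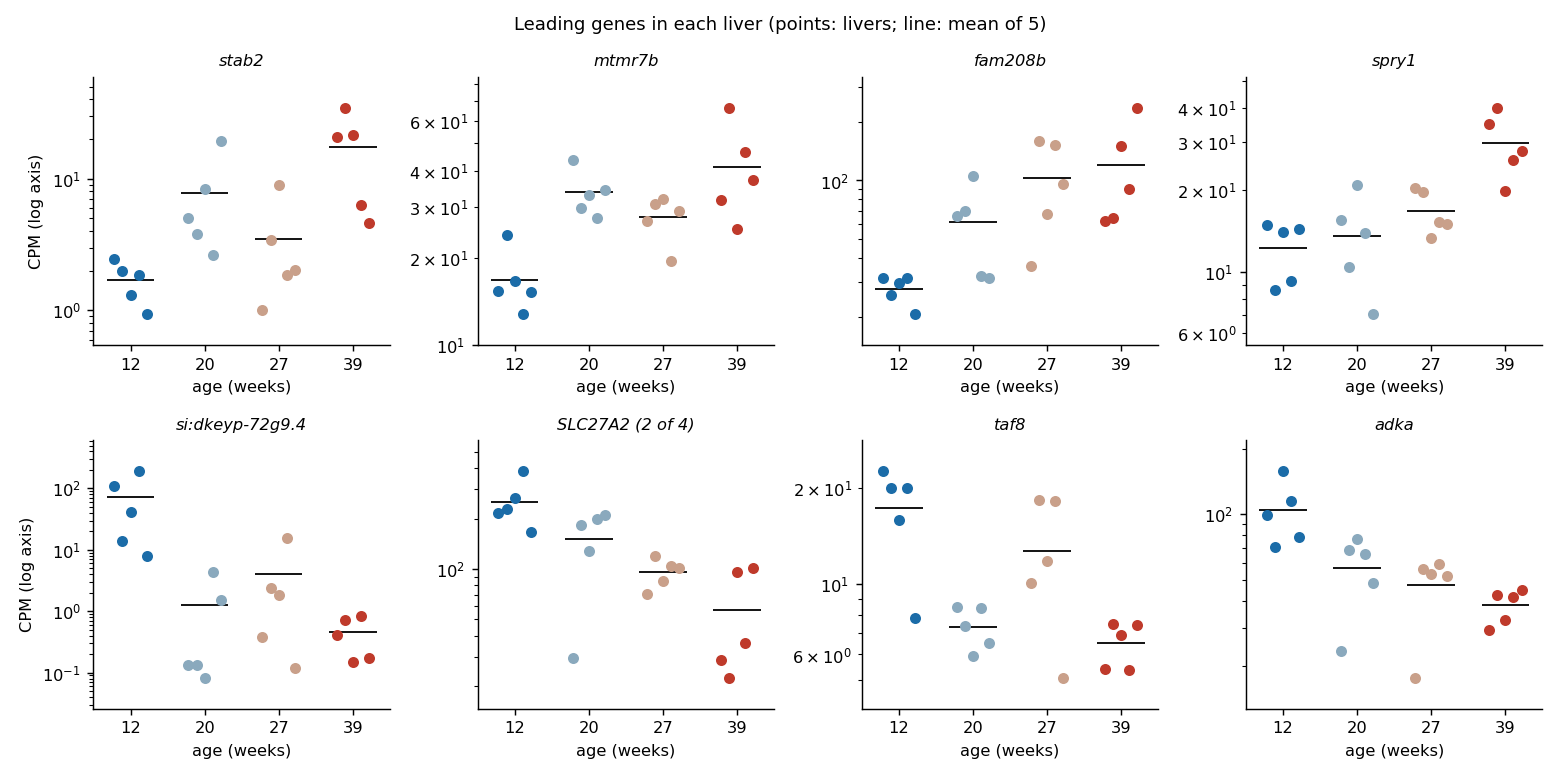
CPM (log axis) of 8 leading genes in each liver by age in weeks, 4 higher and 4 lower at 39 weeks. Points are livers and lines the mean of 5 fish. For stab2 the old livers run from 4.63 to 34.3 CPM, all above the young livers, and for adka all 5 old livers lie below the young ones.

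Subunits of the mitochondrial respiratory chain were lower as a group. All 13 protein-coding genes of the mitochondrial genome had an unadjusted p under 0.05 on the lower side, against 7.45% of all genes, and none passed adjustment. Such a p was found for 6 of the 13 without JM1 and JM15, at a relative median of -0.52. The median of all 13 was -0.66 relative to all genes and -0.58 to -0.76 with each liver left out. With library totals alone the relative median was -0.65. A change of scaling moves all genes nearly alike, so a relative median cannot tell how far a list depends on it. The differences themselves were near 0 with library totals, and none of the 13 had an unadjusted p under 0.05. ATP6, a subunit of ATP synthase, read 2430, 1730, 2940, 3200 and 2570 CPM at 12 weeks and 1310, 1420, 2000, 1170 and 1590 CPM at 39 weeks. Only JM13 among the old livers reached the young range (-0.78 ± 0.23, edgeR adjusted p = 0.139). ND5 of complex I read 2770, 2220, 2800, 2940 and 2780 CPM and 1810, 1860, 2040, 1510 and 1860 CPM, where the groups did not overlap (-0.57 ± 0.20). COX1, the catalytic subunit of complex IV, ran from 18300 to 30300 CPM and from 12300 to 19400 CPM (-0.57 ± 0.24), without the separation seen in ND5. ATP8, ND4L and CYTB had log2 fold changes of -0.87 ± 0.24, -0.67 ± 0.22 and -0.62 ± 0.24. Of all counts, 3.24 to 4.72% fell on these 13 genes in the young and 3.51 to 4.43% in the old livers, which overlap, so that the lower CPM depend on the TMM scaling.

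The nuclear genes of the chain had the same direction relative to all genes. Of 32 complex I subunits tested, 17 were lower and none higher at an unadjusted p under 0.05, with a relative median of -0.61. Without JM1 and JM15, such a p was found for 2 of the 32, and the relative median was -0.48. With library totals none of the 32 had such a p on either side (relative median -0.51). ndufs4, a subunit that complex I needs for assembly, read 48.6, 27.5, 30.6, 61.7 and 17.7 CPM in the young and 15.7, 16.1, 20.9, 14.3 and 21.3 CPM in the old livers. JM107 was the highest and the young JM115 lay within the old range (-1.07 ± 0.28, edgeR adjusted p = 0.117). ndufa7 was at -0.77 ± 0.22. Of 38 subunits of complexes II to V, 12 were lower and 2 higher (relative median -0.49). Leaving out JM1 and JM15 gave 3 lower and none higher (relative median -0.38). With library totals it was 6 higher and none lower, beside 5671 and 242 of all 17618 genes (relative median -0.40). Among the lower ones with TMM factors were the ATP synthase subunit atp5a1 Nfu_g_1_006324 at -0.96 ± 0.30 and the complex III core protein uqcrc2a at -1.02 ± 0.35. In uqcrc2a the livers of JM13 and JM18, with 32.7 and 30.5 CPM, were within the young range, and JM1, JM12 and JM15 read 10.5, 10.3 and 9.98 CPM.

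Around the chain, the picture was mixed. Of 24 tricarboxylic acid cycle genes 4 were higher and 5 lower, with a relative median of -0.03 that was 0.07 with library totals. suclg2, a subunit of succinyl-CoA ligase, read 100, 132, 83.6, 166 and 113 CPM and 75.5, 44.2, 55.1, 38.1 and 61.6 CPM without overlap (-1.11 ± 0.30). The pyruvate carboxylase locus pcl, which feeds the cycle and glucose synthesis, was at -1.19 ± 0.46. Of 28 antioxidant genes 5 were lower and 2 higher (relative median -0.37), and with library totals 2 lower and 6 higher (-0.30). prdx5, a peroxiredoxin of mitochondria and peroxisomes, had 81, 60.9, 71, 138 and 51.4 CPM at 12 and 12.5, 19.6, 46.3, 21.9 and 35 CPM at 39 weeks, and its groups did not overlap (-1.57 ± 0.42). sod2, the superoxide dismutase of mitochondria, was at -1.14 ± 0.38, with JM13 and JM18 within the young range. Of 63 mitochondrial ribosomal proteins 6 were lower and 1 higher, and with library totals none lower and 37 higher, with mrps18a at -0.85 ± 0.28 and a relative median of -0.08 that was 0.02 with library totals.

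Of 39 genes of fatty acid oxidation 12 were lower and 1 higher, with a relative median of -0.61. Without JM1 and JM15 it was 4 lower and 1 higher (relative median -0.49). With library totals it was 4 higher and 1 lower, beside 5671 and 242 of all 17618 genes (relative median -0.62). echs1 Nfu_g_1_014338, the enoyl-CoA hydratase of beta oxidation, read 37.3, 34.4, 38.8, 63.4 and 39.1 CPM and 17.3, 14.9, 33, 20.5 and 22 CPM, without overlap (-0.98 ± 0.26). slc25a20, the carrier of acylcarnitines into mitochondria, read 42.4, 32.2, 41.7, 65.1 and 39.5 CPM and 29.7, 26.9, 18.7, 23.2 and 25.8 CPM, also without overlap (-0.83 ± 0.27). oxct1a, which activates ketone bodies for use, stood at 281, 225, 160, 222 and 44.1 CPM and 10.6, 11.5, 56.4, 22.6 and 104 CPM (-2.19 ± 0.72). Its lowest young liver, JM115, lay below the old livers JM13 and JM18. The acyl-CoA dehydrogenase gene acad11 Nfu_g_1_006943 was at -0.99 ± 0.33 without overlap. pparab Nfu_g_1_003546, a nuclear receptor that switches on fatty acid oxidation in mammals, read 10.1, 10.9, 8.32, 10.6 and 2.9 CPM and 6.05, 1.25, 2.25, 4.03 and 2.79 CPM, where the young JM115 fell among the old livers (-1.39 ± 0.42).

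Fat storage, lipoprotein and sterol genes held members on both sides. plin2 Nfu_g_1_009601, a coat protein of lipid droplets, read 2.52, 4.06, 3.03, 3.56 and 2.79 CPM at 12 weeks and 54.6, 7.69, 3.04, 7.65 and 3.64 CPM at 39 weeks. JM1 stood far above the rest while JM13 and JM18 lay within the young range, and the log2 fold change of 2.26 ± 0.67 was 0.58 without JM1 and JM15. PNPLA3 Nfu_g_1_018110, a lipase of lipid droplets, ran from 0.101 to 12.5 CPM and from 5.1 to 50.7 CPM, with JM1, JM12 and JM15 the highest (3.11 ± 1.19). Fatty acid and triglyceride synthesis as a whole had 3 of 49 lower and 3 higher, with a relative median of -0.42. With library totals it was 1 lower and 10 higher (-0.47).

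Lipoprotein genes had 6 of 30 lower and 2 higher (relative median -0.41), and with library totals 4 lower and 5 higher (-0.54). vldlr, a receptor that takes up triglyceride-rich lipoproteins, read 4.65, 5.42, 3.83, 4.01 and 6.48 CPM and 8.88, 15.5, 8.44, 14.3 and 7.48 CPM, higher in all 5 old livers (1.16 ± 0.27, edgeR adjusted p = 0.0921). apoeb, apolipoprotein E, stood at 195, 171, 281, 198 and 307 CPM and 459, 971, 583, 294 and 340 CPM, where JM15 alone of the old livers lay within the young range (1.20 ± 0.37). apobl, the scaffold of very low density lipoprotein, read 4820, 5560, 4960, 7630 and 8480 CPM and 506, 1120, 5190, 881 and 3240 CPM. JM13 and JM18 stood above JM1, JM12 and JM15, and JM13 was within the young range (-1.53 ± 0.61). The hepatic lipase gene lipca was at -1.39 ± 0.50. Of 26 genes of bile acid and sterol handling 8 were lower and none higher (relative median -0.48). hsd3b7, an enzyme of bile acid synthesis, was at -1.50 ± 0.44, and cyp8b1, which sets the hydroxylation of bile acids, at -0.88 ± 0.31 with 304 to 506 CPM against 80.5 to 286 CPM. Cholesterol synthesis had a relative median of -0.65 over 23 genes, and -0.38 without JM1 and JM15. Of these genes only sc5dl had an unadjusted p under 0.05 (-1.18 ± 0.50). hmgcs1, an early enzyme of that route, read 357, 458, 1470, 907 and 887 CPM and 335, 299, 225, 241 and 134 CPM without overlap. It varied widely among the young livers, and its log2 fold change of -1.72 ± 0.84 had an unadjusted p of 0.0521 in the fit across all genes in edgeR.

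Among 82 genes of amino acid metabolism and the urea cycle, 17 were lower and 6 higher at a relative median of -0.59. Without JM1 and JM15 it was 7 lower and 3 higher (relative median -0.37). With library totals it was 17 higher and 3 lower, beside 5671 and 242 of all 17618 genes (relative median -0.63). OAT, ornithine aminotransferase, read 807, 867, 1260, 1150 and 1020 CPM and 376, 734, 429, 527 and 631 CPM, without overlap (-0.92 ± 0.30). GLS2 (2 of 2), the liver glutaminase, stood at 256, 285, 262, 516 and 248 CPM and 25.2, 37.4, 174, 45.4 and 194 CPM, with JM13 and JM18 nearest the young livers (-1.72 ± 0.58). gatm, the first enzyme of creatine synthesis, ranged from 4.55 to 147 CPM in the young and from 0.215 to 2.75 CPM in the old livers (-5.80 ± 2.04). In contrast PSPH, which makes serine, read 4.43, 2.6, 4.34, 3.93 and 3.51 CPM and 10.2, 20.3, 3.23, 9 and 4.83 CPM, highest in JM12 and within the young range in JM13 (1.34 ± 0.36). Of 42 cytochrome P450 and conjugation genes 12 were lower and 2 higher, with a relative median of -0.77. With JM1 and JM15 left out, it was 1 lower and 1 higher, and with library totals 7 lower and 5 higher (relative medians -0.57 and -0.86). cyp1a, which oxidises aromatic hydrocarbons, read 420, 392, 479, 487 and 244 CPM and 107, 125, 194, 81.3 and 199 CPM, without overlap (-1.52 ± 0.56). cyp2x9 Nfu_g_1_008086 did not overlap either (-1.83 ± 0.65), and the glutathione transferase gene gstt1a was at -1.57 ± 0.46. nr1i2, the xenobiotic receptor that switches on such genes in mammals, was low in all livers, at 0.89 to 1.97 CPM in the young and 0.225 to 0.822 CPM in the old (-1.52 ± 0.42).

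Plasma proteins were lower relative to all genes, and unevenly so. Of 47 tested 11 were lower and none higher, with a relative median of -0.93. Without JM1 and JM15 it was -0.37 with 1 of 47 lower. hpx Nfu_g_1_005996, the heme-binding hemopexin, was the most abundant gene of 4 young livers. It read 121000, 77900, 116000, 143000 and 24400 CPM at 12 weeks and 2960, 1900, 19100, 1980 and 47100 CPM at 39 weeks. JM12, JM1 and JM15 were lowest, and JM18 lay above the young JM115 (-2.72 ± 1.17). Its mean RPKM was 14610 and 2865. Transferrin, tfa, stood at 31700, 25000, 39300, 67300 and 27900 CPM and 1810, 5900, 27600, 6670 and 32100 CPM, where JM13 and JM18 were within the young range (-1.37 ± 0.61). The retinol carrier rbp4 was at -1.59 ± 0.58, the clotting protein fgg at -1.27 ± 0.49, the adhesion protein vtna at -1.06 ± 0.40 and fabp10a Nfu_g_1_010874 at -2.11 ± 0.65. In a whole-tissue library, fewer cells of a type and less RNA per cell cannot be told apart. Of 37 hepatocyte transcription factors 5 were lower and none higher (relative median -0.40), and with library totals none lower and 1 higher (-0.58).

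Several genes of the growth hormone axis were lower at 39 weeks. Of 57 insulin, growth hormone and IGF genes 9 were lower and 3 higher (relative median -0.35). The count was 5 lower and none higher without JM1 and JM15, and with library totals 9 higher and 5 lower (relative medians -0.22 and -0.44). IGFALS, which keeps IGF in the circulation, read 301, 453, 402, 640 and 117 CPM and 76.3, 29.1, 115, 52 and 102 CPM. JM13 nearly reached the lowest young liver, JM115, and the log2 fold change was -2.35 ± 0.66 (edgeR adjusted p = 0.121). ghra Nfu_g_1_009044, a growth hormone receptor, had 49.1, 56.3, 32.9, 38.3 and 32.3 CPM and 8.27, 6.72, 15.6, 8.42 and 14.4 CPM, without overlap (-1.97 ± 0.70). igfbp2b, an IGF-binding protein, stood at -1.44 ± 0.51. INHBE, a liver activin subunit, read 20.6 CPM in JM107 but at most 1.4 CPM in the other young livers and 0 to 0.338 CPM in the old (-4.95 ± 1.28, and -2.27 without JM107).

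Of 34 macrophage genes 10 were higher at an unadjusted p under 0.05, against 9.72% of all genes, and none lower. Their median was 0.89 relative to all genes, 0.57 to 1.06 with each liver left out and 0.70 without JM1 and JM15, where 4 of 34 had such a p. DESeq2 called none of the list. With library totals 12 of the 34 were higher and none lower, beside 5671 and 242 of all 17618 genes. The complement gene c1qa, which macrophages make, read 4.76, 7.89, 4.69, 4.67 and 15.5 CPM and 10.1, 19.4, 17.9, 47.2 and 15.2 CPM. JM115 was the highest young liver, within the old range, and JM15 the highest old liver (1.54 ± 0.60). marco, a scavenger receptor of liver macrophages, read 3.7, 8.86, 4.84, 4.82 and 18.4 CPM and 12.3, 65, 20.2, 47.8 and 20 CPM, where JM1 was the one old liver below JM115 (2.02 ± 0.75). c1qb, c1qc and the mannose receptor mrc1b were at 1.26 ± 0.48, 1.75 ± 0.63 and 1.49 ± 0.58. The summed level of the 38 macrophage genes, led by its most abundant members, overlapped between ages, with 563.6 to 1047 CPM in the young and 496.1 to 1216 CPM in the old livers.

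Innate effectors went the same way, with 9 of 29 higher and none lower (relative median 0.43). Without JM1 and JM15 it was 4 higher and none lower (relative median 0.49). With library totals it was 10 higher and none lower, beside 5671 and 242 of all 17618 genes (relative median 0.46). The NF-kB inhibitor gene nfkbiaa was at 2.53 ± 0.70, with few reads at 0 to 0.265 CPM in the young and 0.168 to 2.04 CPM in the old livers. tlr2 Nfu_g_1_015434, a receptor for bacterial lipoproteins, was at 1.72 ± 0.52, with 0.454 to 1.45 CPM and 1.43 to 5.61 CPM. Both genes overlapped between ages. CFP (1 of 2), properdin, was at 1.79 ± 0.71 without overlap. The T cell kinase gene lck read 1.51, 20.8, 1.06, 1.63 and 2.36 CPM and 17, 4.83, 19.6, 12.2 and 47.5 CPM, with JM105 within the old range (1.88 ± 0.82, and 3.66 without JM105). Of 21 T and NK cell genes 3 were higher, or 14.3% beside 9.72% of all genes, at a relative median of 0.36. The fit without JM1 and JM15 gave 1 higher, at a relative median of 0.12. Interferon and antigen presentation genes had 1 of 30 higher and none lower (relative median -0.14). Of 27 complement genes 4 were higher and 2 lower, or 14.8% and 7.4% beside 9.72% and 7.45% of all genes. The relative median of the complement list was -0.50, and -0.07 without JM1 and JM15. Its summed level was 49490 to 70600 CPM in the young and 7488 to 58860 CPM in the old livers. B cell and plasma cell genes had a relative median of 0.91 with 3 of 24 higher and 1 lower. Granulocyte genes had a relative median of 0.41 with 2 of 16 higher. The higher share was 12.5% in both lists, near the 9.72% of all genes. Their summed levels overlapped between ages. The median summed level was 399.9 CPM at 12 and 332.2 CPM at 39 weeks for B cell and plasma cell genes. For granulocyte genes it was 5548 and 4138 CPM, so both medians were lower at 39 weeks.

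Among 24 endothelial genes 4 were higher and 1 lower (relative median 0.22, and 0.45 without JM1 and JM15). egfl7, secreted by endothelium, was at 0.85 ± 0.29 and flt4 Nfu_g_1_014648, a receptor of lymphatic and sinusoidal endothelium, at -1.31 ± 0.36. Matrix and stellate cell genes had 4 of 45 higher and 4 lower, or 8.9% on each side, near the 9.72% and 7.45% of all genes. Their relative median was 0.26, and 0.0015 without JM1 and JM15. loxl2b Nfu_g_1_003070, an enzyme that cross-links collagen, read 2.86, 11.3, 4.44, 4.23 and 4.87 CPM and 0.706, 1.93, 0.976, 0.806 and 1.26 CPM, without overlap (-2.28 ± 0.50, edgeR adjusted p = 0.0767). The loxl2b locus Nfu_g_1_012089 was at -1.83 ± 0.48. lrata, by which stellate cells store vitamin A, was at 0.794 to 2.51 CPM and 0 to 0.563 CPM (-3.03 ± 0.99), and tgfb1a, the growth factor that activates these cells in mammals, at 6.78 to 10.6 and 11.2 to 17.1 CPM, higher in all old livers (0.80 ± 0.27). Erythrocyte genes had 6 of 19 lower and none higher (relative median -1.07), and without JM1 and JM15 2 lower at -0.56. With library totals 1 was lower and 1 higher (-1.10). Their summed level was 1010 to 4832 CPM in the young livers and 338.3 to 741.1 CPM in the old, except 3241 CPM in JM18. gata1a, the erythroid transcription factor, read 17.2, 16.5, 13.3, 17.6 and 8.67 CPM and 2.79, 3.22, 1.88, 3.18 and 5.61 CPM (-2.13 ± 0.68). alas2, the first enzyme of heme synthesis in these cells, read 3.9, 3.4, 3.04, 3.58 and 25.9 CPM in the old livers, within the young range of 16 to 64.5 CPM in JM18 alone (-2.25 ± 0.94, and -3.41 without JM18).

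Chaperone and proteasome genes varied widely among the old livers. hsp90aa1.2, a stress-induced cytosolic chaperone, read 18.8, 11.5, 20.4, 13.6 and 7.16 CPM at 12 weeks and 777, 599, 21.3, 1140 and 13.3 CPM at 39 weeks. JM1, JM12 and JM15 stood far above all young livers, and JM13 and JM18 at or near the young range (5.16 ± 1.28, edgeR adjusted p = 0.103). hsp70.1, an inducible chaperone, read 11.4, 2.07, 4.74, 6.45 and 1.47 CPM and 138, 16.1, 18, 223 and 7.89 CPM, with JM1 and JM15 the highest (3.95 ± 1.03, and 1.43 without these 2 livers). The co-chaperone gene hspa4a had 8.46, 9.39, 15.7, 10.3 and 11.4 CPM in the young livers and 109, 106, 6.15, 80.3 and 5.68 CPM in the old. Here JM13 and JM18 lay below every young liver and JM1, JM12 and JM15 above (2.47 ± 0.81). The small heat shock protein gene hspb1 was at 1.94 ± 0.54, and hsf1, the transcription factor of this response, at 0.50 ± 0.19. Of 35 cytosolic heat shock genes 10 were higher and 4 lower, with a relative median of 0.21 that was -0.05 without JM12.

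psmd11b, a subunit of the proteasome lid, was again high in JM1, JM12 and JM15 and low in JM13 and JM18, at 12.4, 13.6, 20.3, 18.4 and 27.7 CPM against 96.6, 110, 10.3, 74.9 and 8.54 CPM (1.70 ± 0.66). Its paralogue psmd11a was at 1.17 ± 0.37. The summed level of the proteasome genes was 862.6 to 1435 CPM in the young livers, and in the old 1666, 2447 and 1510 CPM in JM1, JM12 and JM15 but 898.7 and 834.6 CPM in JM13 and JM18. Of 48 subunits 9 were higher and 1 lower (relative median 0.37), and without JM1 and JM15 none had an unadjusted p under 0.05 at a relative median of 0.32. Endoplasmic reticulum chaperones had 9 of 41 higher and 2 lower, with a relative median of 0.23 that was -0.07 without JM12. sel1l and edem1, which lead misfolded proteins out of that compartment, were at 1.26 ± 0.52 and 0.87 ± 0.37, highest in JM12 and JM15 for edem1. Of 78 cytosolic ribosomal proteins none had an unadjusted p under 0.05 on either side, with a relative median of -0.22 that was 0.07 without JM1 and JM15. With library totals alone 69 of the 78 were higher at such a p. Autophagy and lysosome genes had 5 of 47 lower and 1 higher, and with library totals 1 lower and 4 higher.

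**Figure D3:**
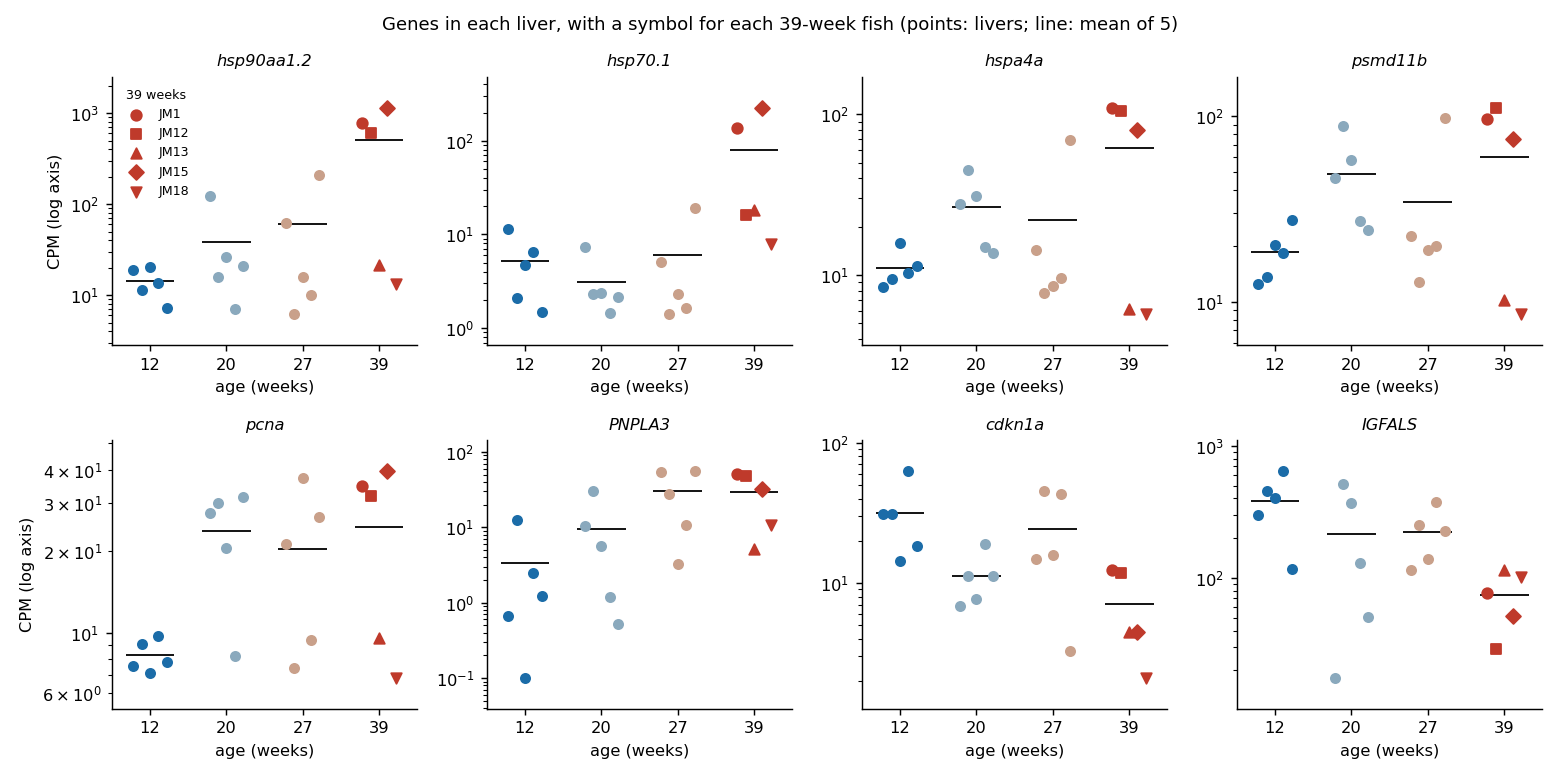
CPM (log axis) of 8 genes that varied among the 39-week livers, by age in weeks, with a symbol for each 39-week fish. Points are livers and lines the mean of 5 fish. For hsp90aa1.2, JM1, JM12 and JM15 read 777, 599 and 1140 CPM, and JM13 and JM18 read 21.3 and 13.3 CPM, next to the 12-week livers.

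Few cell cycle genes had an unadjusted p under 0.05, with 4 of 75 higher and 2 lower and a relative median of 0.09 that turned to -0.07 with library totals. pcna, the clamp of DNA polymerase, read 7.57, 9.08, 7.11, 9.72 and 7.84 CPM and 34.8, 32.1, 9.61, 39.3 and 6.84 CPM, with JM13 within the young range and JM18 just below it (1.57 ± 0.47). RRM2 (1 of 2) Nfu_g_1_019000, which makes deoxynucleotides, was at 1.01 ± 0.29. Of 28 p53 targets 6 were lower and 2 higher (relative median -0.48), and with library totals 1 lower and 4 higher (-0.46). cdkn1a, the p21 inhibitor of the cell cycle, read 31.2, 30.9, 14.3, 62.5 and 18.4 CPM and 12.5, 11.7, 4.5, 4.48 and 2.11 CPM, lower in all 5 old livers (-2.15 ± 0.60, edgeR adjusted p = 0.121). mdm2 and ccng1 Nfu_g_1_004305, of the same pathway, were at -0.62 ± 0.25 and -0.86 ± 0.33. Clock genes were split, with 4 of 39 higher and 5 lower, and 12 higher and none lower with library totals. arntl1a Nfu_g_1_008319, an activator of the clock, did not overlap at 1.06 to 3.68 CPM against 4.27 to 7.21 CPM (1.24 ± 0.36). nr1d2b Nfu_g_1_010960, a repressor of that loop, did not overlap either, at 98.1 to 242 CPM against 50.7 to 81.1 CPM (-1.36 ± 0.56). The labels give no hour of sampling, and its part in these values was not tested. junba Nfu_g_1_019346, an immediate early transcription factor, was at 1.67 ± 0.62 without overlap, and 4 of 32 such genes were higher and 1 lower.

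Muscle genes gave the largest list median, 2.10 relative to all genes, with 12 of 26 higher and 1 lower, and -0.45 without JM15. The fast muscle troponin gene tnnt3a read 2.49, 4.18, 8.03, 364 and 14 CPM in the old livers, and its log2 fold change of 3.07 ± 1.22 was -0.35 without JM15. The intestine list read 0.81 relative to all genes, and -0.65 without JM1. Pancreas genes had a relative median of -1.38 with none of 21 at an unadjusted p under 0.05. Glucose and glycogen enzymes had 7 of 45 higher and 6 lower, and with library totals 15 higher and 1 lower. Bile duct genes had 3 of 32 higher and 1 lower. Iron handling genes had 1 of 18 higher and 2 lower, and with library totals 4 higher and 2 lower. Of germ cell, adipocyte and yolk genes only 4, 5 and 6 were tested, with none at an unadjusted p under 0.05.

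**Figure D4:**
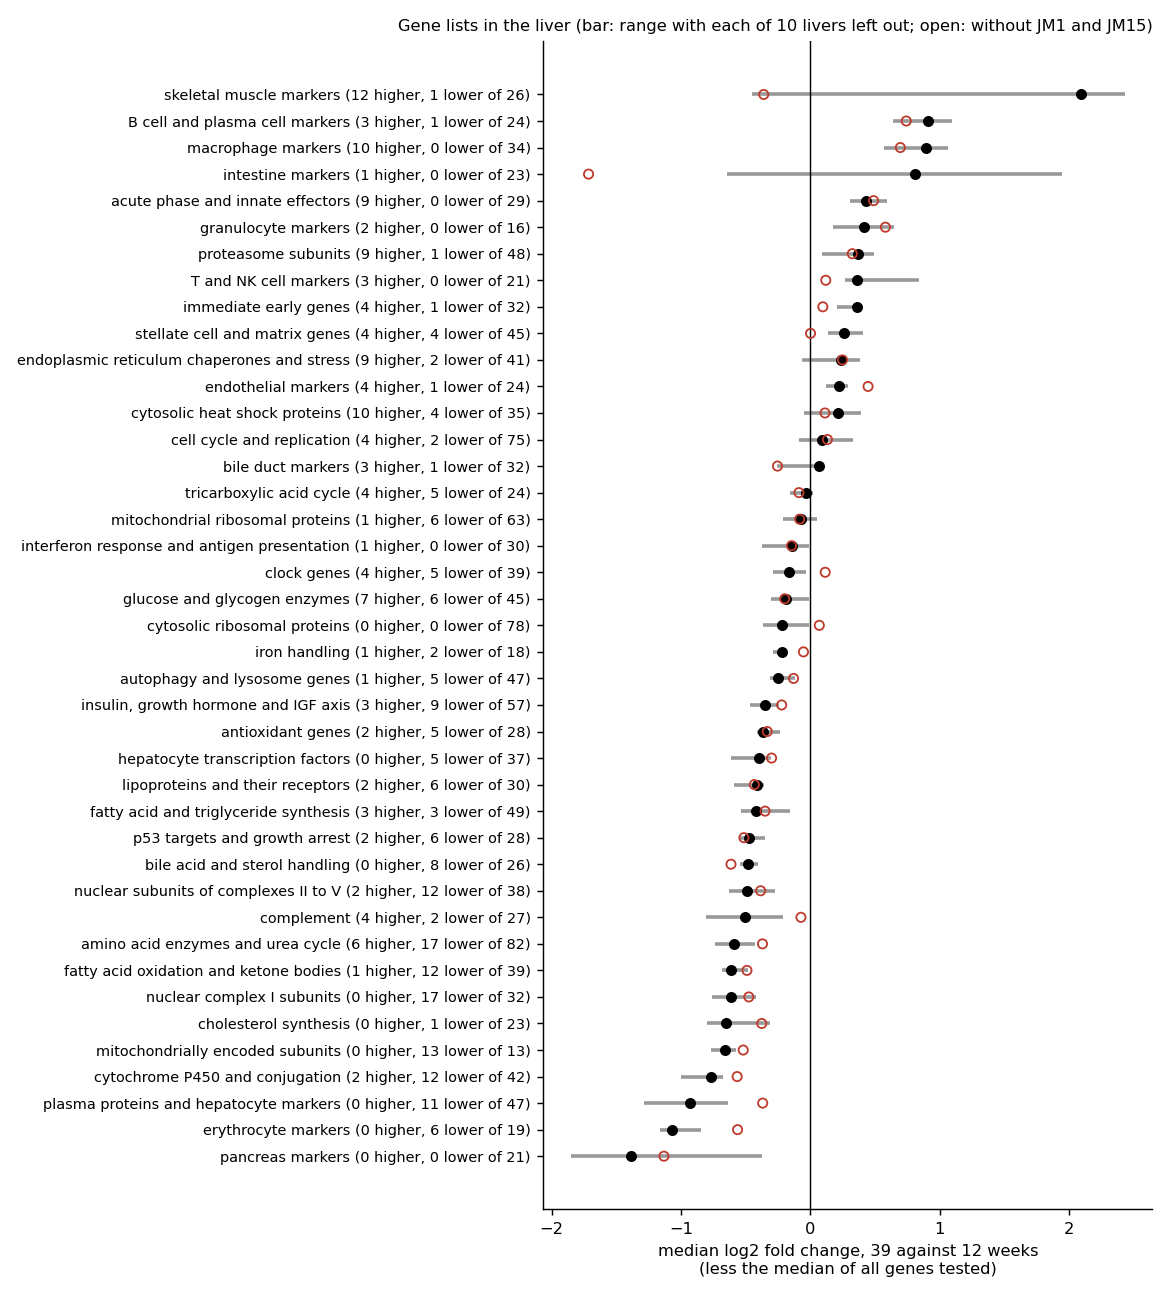
Median log2 fold change of each gene list at 39 against 12 weeks, less the median of all genes tested (horizontal axis). Filled points use all 10 livers, bars give the range with each liver left out and open points leave out JM1 and JM15. Labels give members higher and lower at an unadjusted p under 0.05. Mitochondrially encoded subunits stand at -0.66 with a bar from -0.76 to -0.58, and skeletal muscle markers at 2.10 with a bar that reaches -0.45.

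Across the 20 livers from 12 to 39 weeks, no gene of 17289 had a slope on age past the threshold in edgeR, where the smallest adjusted p was 0.064. At an unadjusted p under 0.05, 1179 slopes (6.82%) were upward and 812 (4.7%) downward. DESeq2 called 175 slopes, of which 71 were upward, and edgeR called 30 without the 20-week liver of JM75, 10 without JM18 and 13 on the log2 of age. The 20-week mean lay nearer to the 39-week than to the 12-week mean for 73.4% of the genes higher at 39 weeks and 70.8% of those lower, against 63.4% of all genes tested. Of the 1713 higher genes, 326 had means that went up at each of the 4 ages, and of the 1313 lower genes 360 went down. Of all 17618 genes 907 went up and 785 down in this way. The higher and lower genes were chosen by the first and last age, which favours such an order. stab2 had mean levels of 1.71, 7.84, 3.47 and 17.5 CPM at 12, 20, 27 and 39 weeks. si:dkeyp-72g9.4 had means of 72.7, 1.25, 4.06 and 0.458 CPM, so that its low level was present at 20 weeks. Other genes were graded. SLC27A2 (2 of 4) averaged 251, 150, 95.9 and 57 CPM at the 4 ages, with a slope of -0.078 ± 0.016 log2 units a week (edgeR adjusted p = 0.064). RABGAP1 Nfu_g_1_006457 averaged 10.5, 8.84, 6.96 and 4.4 CPM. spry1 averaged 12.2, 13.6, 16.8 and 29.6 CPM, with most of its difference after 27 weeks, and so did hsp90aa1.2 (14.3, 38.5, 60.7 and 510 CPM), whose last mean rests on 3 livers.

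Of the mitochondrially encoded subunits 8 of 13 had a downward slope at an unadjusted p under 0.05, against 4.7% of all genes, and of complex I subunits 3 of 32. Fatty acid oxidation genes had 6 of 39 downward and 1 upward, and cytosolic heat shock genes 12 of 35 upward, against 6.82% of all genes upward. Among heat shock genes, hsp90aa1.2 and hspa4a were high at 39 weeks in JM1, JM12 and JM15 but not in JM13 and JM18. A slope cannot tell a graded rise from a few high livers at the last age. Stellate cell and matrix genes had 11 of 45 upward and 3 downward, against 4 higher and 4 lower in the comparison of 39 with 12 weeks. No macrophage gene had a slope at an unadjusted p under 0.05 in either direction, against 10 of 34 higher in that comparison.

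The same ages were sampled in skin, with 5 fish giving both tissues at 12 or 39 weeks. The edgeR fit of the tissue difference had no term for fish and treated both libraries of a fish as independent. A limma-voom fit with fish as random block called 5183 genes. The difference between both tissues in their change from 12 to 39 weeks passed the threshold for 4272 of 19861 genes in edgeR, with liver above skin for 2616 (13.2%) and below for 1656 (8.34%). With library totals alone the counts were 6950 and 134, so that single directions depend on the scaling, and lists are again given relative to all genes. All 13 mitochondrially encoded subunits were called below skin, as were 30 of 32 complex I subunits and 30 of 38 of complexes II to V. The relative medians of this tissue difference were -2.01, -1.95 and -1.62. In skin alone these lists had median log2 fold changes of 1.24, 1.10 and 1.04. ATP6 stood at -0.78 ± 0.23 in liver and 1.33 ± 0.20 in skin, a difference of -2.08 ± 0.29 (edgeR adjusted p = 3.03e-06). prdx5 stood at -1.57 ± 0.42 and 1.16 ± 0.32. With library totals 8, 15 and 8 members of the 3 lists stayed below, and without the livers JM1 and JM15 and the skin JM109 it was 13, 28 and 28. The JM109 skin carried hepatocyte genes at 26960 CPM of library totals, against 1290 to 2656 CPM in the other 9 skins.

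Ribosomal proteins differed in the same direction between tissues, with 70 of 78 cytosolic and 37 of 63 mitochondrial ones below skin and none above. With library totals 3 and 2 were below and 1 of each above. Matrix genes were on the other side, with 23 of 48 above skin and none below (33 above with library totals, 14 without JM1, JM15 and JM109). The median matrix gene had a log2 fold change of -1.51 in skin and 0.34 in liver. Macrophage genes had 1 of 34 above and none below. Among single genes, stab2 differed by 2.64 ± 0.67 (edgeR adjusted p = 0.00347), being at 0.73 ± 0.47 in skin. si:dkeyp-72g9.4 differed by -8.50 ± 1.33, with 1.22 ± 0.82 in skin. f3b, tissue factor, which starts clotting, differed by 2.27 ± 0.28, and nfe2, a transcription factor of red cell precursors, differed by -1.81 ± 0.25. For these differences the edgeR adjusted p was 1.07e-06 and 2.39e-06. In liver alone f3b and nfe2 stood at 0.56 ± 0.23 and 0.20 ± 0.17, so nfe2 was not lower in the old livers.

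**Figure D5:**
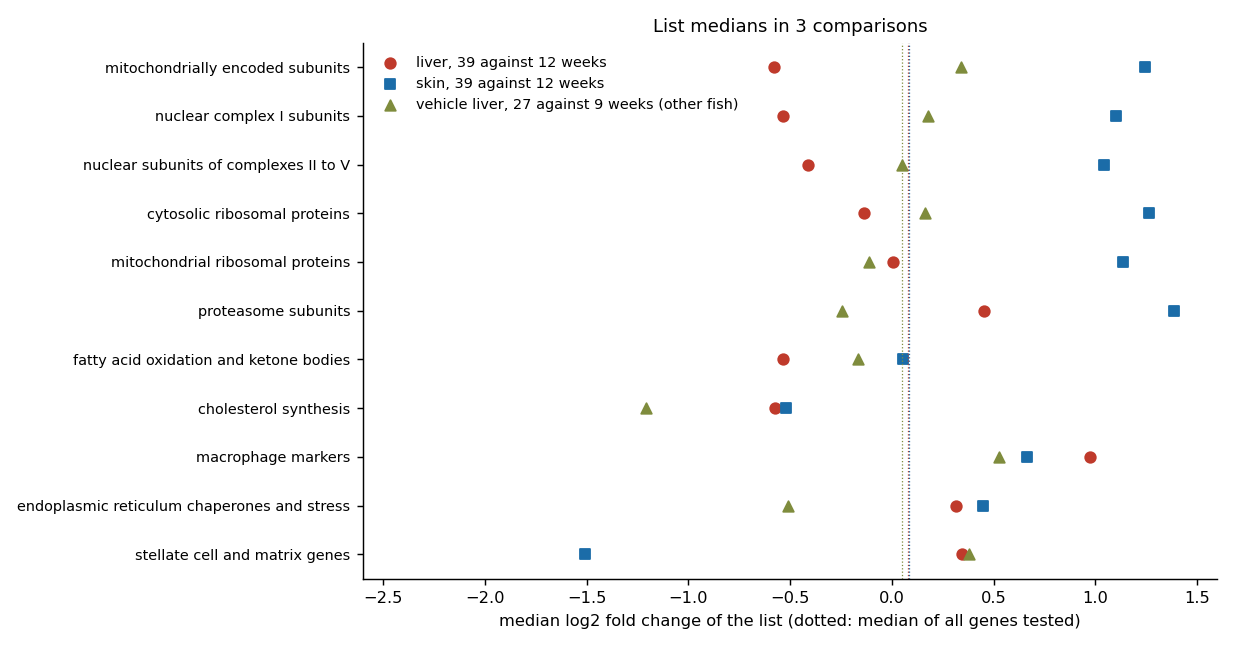
Median log2 fold change of 11 gene lists in liver and in skin at 39 against 12 weeks and in vehicle livers at 27 against 9 weeks (horizontal axis). Dotted lines give the median of all genes tested in each comparison. Mitochondrially encoded subunits are at 1.24 in skin and 0.34 in vehicle livers and below 0 in liver, and matrix genes at -1.51 in skin.

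Livers of other fish, with DMSO in the tank water, gave another comparison of ages, 27 against 9 weeks, which differs in age and treatment from that of untreated fish and shares no library with it. In edgeR 2072 of 16750 genes passed, 785 (4.69%) higher and 1287 (7.68%) lower at 27 weeks. That count moved with nearly every library, from 737 without MC3 to 3894 without MC1, with 1073 without MC2, 873 without MC4, 1083 without MC5, 1380 without MC6, 1186 without MC7 and 778 without MC8. It was 53 without both MC7 and MC8, whose muscle genes summed to 1205 and 731.9 CPM of library totals against at most 103.7 CPM in the other 8 livers. Of genes higher in the untreated old livers at an unadjusted p under 0.05, 39.2% (640 of 1634) had the same sign in the vehicle livers, and of those lower 47.6% (611 of 1284), beside 50% of all genes above 0 and 41.6% of all genes below 0 in the untreated comparison.

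List medians in the vehicle livers are given as they are, not relative to all genes, whose median was 0.05. Mitochondrially encoded subunits had a median of 0.34 and complex I subunits of 0.18, with none of 13 and none of 32 called. Cholesterol synthesis had a median of -1.21 with 6 of 23 called lower, lipoproteins -0.58 with 10 of 30 lower and 1 higher, and proteasome subunits -0.24 with 10 of 46 lower. Without MC7 and MC8, 1, 1 and none of these were called lower, at medians of -1.03, -0.46 and -0.25. Macrophage genes had a median of 0.57 with none of 34 called. stab2 rose by 5.22 ± 1.46 in the vehicle livers (edgeR adjusted p = 0.0328), but was called with only 4 of the 10 livers left out in turn and stood at -0.08 without MC7 and MC8. fam208b rose by 2.00 ± 0.43 (edgeR adjusted p = 0.0136) and was called with each of the 10 livers left out, and stood at 1.88 without MC7 and MC8 (edgeR adjusted p = 0.0807). Of the other leading genes on the higher side, BX005380.1 and tcf12 were above 0, and mtmr7b, spry1, s1pr5a and sash1a below. sash1a was called at -0.79 and BX005380.1 at 0.73 (edgeR adjusted p = 0.0311 and 0.0455). The leading genes described on the lower side ran from -0.277 to -0.996, with none called. arntl1a Nfu_g_1_008319 was at -1.33 (edgeR adjusted p = 0.00955) and called with each liver left out. None of these was called without MC7 and MC8. hspa4a and psmd11b, uneven among the untreated old livers, were lower in the vehicle livers at -1.56 ± 0.36 and -1.70 ± 0.34 (edgeR adjusted p = 0.0162 and 0.0105). apoeb, at 1.20 ± 0.37 in the untreated livers, was lower there at -1.32 ± 0.30 (edgeR adjusted p = 0.0162). These 3 were also called with each liver left out, and none of them without MC7 and MC8, at log2 fold changes of -1.30, -1.48 and -1.49.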

How the data were processed

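Total RNA was made into TruSeq RNA libraries, per the labels' protocols. The submitters' processing notes name CASAVA 1.8.0 and CASAVA 1.8.2, the read mapper TopHat2 2.0.6, the converter bcl2fastq 1.8.4 and the counter featureCounts 1.4.3-p1. The authors deposited read counts per gene, used for every test, and RPKM per gene, used only for the hpx means named so. The sources used here state no genome build, annotation or strand setting, so reads of a gene and an antisense partner cannot be told apart. The table holds 23564 loci, of which 22054 carry a symbol and 9479 share it.

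edgeR 4.0.16 under R 4.3.3 fitted the counts by robust quasi-likelihood after filterByExpr, scaled by TMM, and adjustment over the whole table was by Benjamini-Hochberg. All 25 untreated livers, of 5, 12, 20, 27 and 39 weeks, shared 1 estimate of spread in the comparison of ages. The slope used 20 livers, the tissue difference 50 livers and skins, and the vehicle comparison 15 livers of the DMSO and rotenone arm. Alternatives were DESeq2 1.42.0, RLE factors, no filter, fewer groups, each library left out, library totals and, for skin, limma 3.58.1 voom with fish as random block. The fits were tested on simulated data.

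Genes, lists and tests were chosen with earlier results of these data known. Of 304 genes named by 4 criteria, 106 were followed across settings and the text gives part of these. These were, per direction, the 15 smallest p of 39 against 12 weeks among genes averaging log2 CPM 2 or more whose sign held in every fit with a liver left out. Added were up to 6 members of each of 44 lists by smallest p, or all where a list has 15 or fewer. The last were the 10 smallest p of the slope and the 5 smallest p of liver minus skin, per direction at the same level. Replicate livers differed beyond counting noise, with a lowest chi-square per degree of freedom of 98.07. Totals of 15.0 to 37.0 M counts limit the precision of genes of few CPM. Figures used Python 3.11.15, numpy 2.4.6, pandas 2.3.3 and matplotlib 3.10.9.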

Additional observations from a re-analysis of the deposited data

Results flagged for a closer look

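In 18 of 308 sets of values examined, each over the 5 livers of 1 age, 1 liver stood far from the other 4. That is near the share of about 1 in 20 that chance flags. The sets are genes, list sums and library measures over the same livers, so they are not independent. Among the 12-week livers JM115 was low for cecr1a (12.7 CPM, next 24.2) and pparab Nfu_g_1_003546 (2.9 CPM, next 8.32), and high for sel1l (26.8 CPM, next 12.8) and the summed germ cell genes (103 CPM, next 16.3). JM107 was high for echs1 Nfu_g_1_014338 (63.4 CPM, next 39.1), GLS2 (2 of 2) (516 CPM, next 285), INHBE (20.6 CPM, next 1.4) and the summed bile acid and sterol genes (3650 CPM, next 2790). JM105 was low for ND5 (2220 CPM, next 2770) and high for lck (20.8 CPM, next 2.36).

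Among the 39-week livers JM18 was high for TEX264 (1 of 2) (4.59 CPM, next 3) and alas2 (25.9 CPM, next 3.9). JM1 was low for tgfb1a (11.2 CPM, next 15.5). JM12 was high for f3b (6.15 CPM, next 4.77) and the summed endoplasmic reticulum chaperones (9450 CPM, next 6440), and low for the summed interferon genes (655 CPM, next 1290). JM15 was high for the summed muscle genes (3040 CPM, next 180) and low for the summed bile acid and sterol genes (1310 CPM, next 2010).

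For comparison with skin 15 genes of the text were picked, and for each the change from 12 to 39 weeks differed by the tissue term in edgeR. The number 15 is therefore the size of that choice and not a count over the text. Genes not listed here may differ too, as all 13 mitochondrially encoded subunits did. Liver was above skin, in log2 units, by 2.64 for stab2, 2.91 for plin2 Nfu_g_1_009601, 4.85 for PNPLA3 Nfu_g_1_018110, 1.31 for apoeb and 2.27 for f3b. Liver was below skin, at -8.50 for si:dkeyp-72g9.4, -1.34 for TEX264 (1 of 2), -2.58 for taf8, -1.54 for got2a Nfu_g_1_003902, -2.08 for ATP6, -2.16 for ndufs4, -2.70 for prdx5, -1.62 for echs1 Nfu_g_1_014338, -2.43 for OAT and -1.81 for nfe2. Without the livers JM1 and JM15 and the skin JM109, plin2 and PNPLA3 were not called (edgeR adjusted p = 0.223 and 0.494). PNPLA3 was also lost with fish as random block (limma-voom adjusted p = 0.0877). With library totals alone TEX264, got2a, echs1 and OAT were not called (edgeR adjusted p = 0.518, 0.152, 0.129 and 0.106).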

How the results depend on the processing

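For 39 against 12 weeks the count of calls was 0 with all 10 livers in edgeR and also with RLE factors, without a filter, with only the 10 livers, with 20 livers, without JM1 and JM15, without these and JM104, and without loci of other tissues. It was 508 in DESeq2, 6 with library totals and 0 to 118 with each liver left out. The slope gave 0 calls, 175 in DESeq2, 13 on log2 of age and 0 to 30 with each liver left out. Liver minus skin gave 4272 calls, 3550 to 4730 with a library left out and 7084 with library totals, and the fish random block, with a correlation of 0.317, gave 5183. The vehicle livers gave 2072 calls, 3151 in DESeq2, 1279 with only the 10 vehicle livers, 737 to 3894 with each liver left out and 53 without MC7 and MC8.

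Of 106 genes followed across settings 103 kept their sign in all 19 alternatives. ND5 and COX1 turned to 0.029 and 0.038 with library totals. tnnt3a turned to -0.10 without JM1 and JM15 and to -0.0012 without JM104 as well, and ran from -0.35 to 3.39 with each liver left out. Of 44 lists 31 kept the sign of their relative median. The library totals, the fits without named livers and the fit without loci of other tissues were chosen after seeing the data. The cause of these shifts was not tested. No paired analysis was possible because the labels give fish codes, different fish at each age, and no replicate number shared between ages.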

Other observations

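Several genes outside the lists, named by the slope on age, are given here with their mean levels. The unannotated locus Nfu_g_1_008919 had mean levels of 300, 107, 57 and 39.7 CPM at 12, 20, 27 and 39 weeks, with a slope of -0.105 ± 0.021 log2 units a week (edgeR adjusted p = 0.064). mycn, a growth-promoting transcription factor, had means of 3.14, 3.66, 5.2 and 8.62 CPM and a slope of 0.057 ± 0.012 (edgeR adjusted p = 0.064). fzd5, a Wnt receptor, had means of 2.7, 2.17, 5.65 and 15.1 CPM, higher at 27 and 39 weeks (edgeR adjusted p = 0.0797). The deubiquitinase gene usp28 had means of 3.22, 3.03, 4.28 and 11.4 CPM, with the higher level at 39 weeks (edgeR adjusted p = 0.0685). None of these slopes passed the threshold in edgeR.

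Yolk genes, which the liver of egg-laying females makes under estrogen, were low at 12 and 39 weeks. The 2 vtg2 loci averaged 1.99, 36.3, 5.36 and 3.7 CPM and 0.0794, 6.84, 0.141 and 0.0717 CPM at the 4 ages, and the estrogen receptor locus esr1 Nfu_g_1_018712 averaged 27.4, 25.8, 28.3 and 27.6 CPM.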
